A study of Sus scrofa with 13 samples.

Results

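The messages described here are 10 genes of fibroblast growth factor (FGF) signalling in pig (Sus scrofa) preimplantation embryos, out of 28232 genes in the deposited table. They were chosen by gene symbol as a named group and comprise 2 ligands (FGF2 and FGF4), 4 receptors (FGFR1, FGFR2, FGFR3 and FGFR4), 3 feedback inhibitors (DUSP6, SPRY2 and SPRY4) and the target gene ETV4. All 10 were present under a symbol of their own, and 9 had enough counts to be tested. FGFR1 was not tested.

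Embryos were compared by origin and by stage with messenger RNA sequencing of pooled embryos. The groups were blastocysts from in vitro fertilisation (IVF, 3 libraries) and blastocysts developed in vivo (2 libraries), IVF hatched blastocysts (3 libraries) and in vivo hatched blastocysts (2 libraries), and IVF 4-cell embryos (3 libraries). On hatching, a blastocyst slips out of the zona pellucida, the coat around the egg. The study's design asks how expression moves with stage and how embryos from IVF differ from embryos developed in vivo. The number of embryos in a pool, their age, the animals and the days of collection were not given. These cannot be told apart from origin or from stage. P-values rest on the spread among these libraries alone, part of which may be technical. In bulk samples such as these, fewer cells of a type and less RNA per cell cannot be told apart.

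FGF ligands are secreted proteins that bind receptor tyrosine kinases together with heparan sulfate. The bound receptor recruits adaptors that switch on RAS and the MAP kinase ERK. ERK then raises the transcription of ETS factors such as ETV4 and of its own inhibitors, the sprouty proteins and the phosphatase DUSP6, so these messages are commonly used as a readout of the pathway. In the mouse blastocyst, FGF4 made by the epiblast, the founder of the embryo proper, directs neighbouring inner cells to become hypoblast, the founder of the yolk sac.

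Total counts per library lay between 33259311 and 39273867, so 3 counts, used below as a floor, correspond to 0.0764 to 0.0902 CPM (read counts scaled to library size). Across 13643 genes, 4-cell library 1 stood apart from the other 4-cell libraries, with Pearson correlations of log2(CPM + 1) of 0.776 and 0.786 against 0.927 between the remaining pair, and 0.97 to 0.982 within the other groups. It held the highest 4-cell value for 7 of the 9 members with any 4-cell count. The trophectoderm markers CDX2, KRT18 and KRT7 had no count at the 4-cell stage, and the summed trophectoderm list stood at 19713 CPM or more in every blastocyst library. For in vivo hatched blastocysts, 1 of the 2 count columns has no number in its name, and that sample is named the unnumbered library here. Values after ± are the SD between libraries for CPM, with n = 3 in IVF groups and n = 2 in in vivo groups. For log2 fold changes they are approximate standard errors, namely the size of the change divided by the square root of its edgeR F statistic.

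FGF4 was lower and FGF2 higher in every IVF library than in every in vivo library of the same stage. Neither passed the edgeR test at either stage. By DESeq2 both passed in blastocysts (adjusted p = 0.00514 for FGF4 and 0.0116 for FGF2) and in hatched blastocysts (0.0175 and 0.0233). FGF4 (gene 100518595, chromosome 2, 3527113 to 3529011, Sscrofa11.1 as are all positions below) had 0, 0 and 0.467 CPM in IVF blastocysts, against 6.41 and 0.997 CPM in in vivo blastocysts. After hatching it had 0.421, 0.129 and 0.524 CPM in IVF embryos, against 3.13 CPM in the unnumbered library and 8.68 CPM in library 2 of in vivo embryos. Every IVF library was below every in vivo library of the same stage, although the in vivo libraries of each stage were themselves far apart. The log2 fold change of IVF over in vivo was -4.67 ± 1.42 in blastocysts (adjusted p = 0.0566, edgeR quasi-likelihood test with Benjamini-Hochberg adjustment over all genes tested) and -3.95 ± 1.35 in hatched blastocysts (adjusted p = 0.0821), neither past the threshold of 0.05. In blastocysts the value depended on single libraries. It was -2.60 without in vivo library 1 (adjusted p = 0.401), -5.48 without in vivo library 2 (adjusted p = 0.0312), and past the threshold without IVF library 3 (adjusted p = 0.0161), the 1 IVF library with FGF4 counts. The IVF values are a few reads each, 0, 0 and 17 counts in blastocysts and 15, 5 and 19 counts in hatched blastocysts.

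FGF2, a ligand of several FGF receptors that is widely added to cultures of pluripotent cells (gene 397643, chromosome 8, 101278877 to 101344084), ran the other way. It had 9.68, 15.3 and 6.59 CPM in IVF blastocysts, against 4.27 and 3.53 CPM in in vivo blastocysts. In hatched embryos it had 10.6, 12.03 and 12.1 CPM after IVF, against 5.67 CPM in the unnumbered library and 4.47 CPM in library 2 from in vivo. The groups did not overlap at either stage. The differences were 1.39 ± 0.41 (adjusted p = 0.0518) and 1.27 ± 0.41 (adjusted p = 0.0669) on the log2 scale by edgeR, just short of the threshold. The FGF2 span overlaps NUDT6 in the RefSeq table, and whether counting used strand was not given, so reads of these genes may not be separate.

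When the IVF minus in vivo difference was averaged over both stages, a contrast added after the values had been seen, 4 of 9 members passed, in a contrast where 19.4% of all 15528 genes did. FGF4 was lower in IVF embryos by this measure (-4.31 ± 0.98, adjusted p = 0.0113, edgeR) and FGF2 higher (1.33 ± 0.29, adjusted p = 0.00918). Both calls were kept when any 1 of the 10 libraries was left out. Both were lost when the 4-cell libraries were added to the fit, with adjusted p of 0.184 for FGF4 and 0.124 for FGF2. The other 2 members past the threshold were receptors, described below.

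On the per-length TPM scale genes can be set side by side. Secreted FGF messages there summed to less in IVF than in in vivo blastocysts, unhatched and hatched. TPM was rebuilt from the counts with 1 length per gene for all 13 libraries, and receptor shares moved by at most 0.218 percentage points from the deposited TPM in the 12 libraries where both were at hand. The sums cover 18 secreted FGF genes and leave out FGF11, FGF12, FGF13 and FGF14, which act inside the cell, a choice made after the values had been seen. IVF blastocysts had 7.50, 5.13 and 10.96 TPM, against 29.0 and 16.9 TPM in in vivo blastocysts. IVF hatched blastocysts had 6.18, 5.03 and 6.04 TPM, against 35.2 TPM in the unnumbered library and 31.3 TPM in library 2 of in vivo hatched blastocysts. The TPM sums did not overlap between origins at either stage. IVF 4-cell embryos had 64.8, 26.8 and 10.9 TPM. In CPM, not scaled by length, all 22 FGF genes summed to 16.6 to 21.2 in IVF blastocysts, against 17.3 to 18.9 in in vivo blastocysts. Those ranges overlapped. After hatching the CPM sums were 16.6 to 21.9 for IVF, against 24.4 to 25.4 for in vivo.

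Before hatching, FGF21 led in libraries of both origins. It led in IVF blastocyst libraries 1 (45.2% of the sum) and 3 (45.7%), with FGF2 leading in IVF library 2 (78.1%), and in in vivo library 2 (57.3%), with FGF4 leading in in vivo library 1 (47.6%). After hatching, FGF2 led in all 3 IVF libraries, with 44.5%, 62.7% and 53.5%. In vivo hatched blastocysts were led by FGF19 in the unnumbered library (69.6%) and by FGF4 in library 2 (64.8%), and FGF2 made up 4.27% and 3.86% there.

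FGF19 is an endocrine FGF, known in the liver as the ligand of FGFR4 with the co-receptor KLB. It had 0.112, 0 and 0 CPM in IVF hatched blastocysts, against 12.4 CPM in the unnumbered library and 4.28 CPM in library 2 of in vivo hatched blastocysts. Of 20 other FGF genes in the table, 7 had enough counts to be tested. Among these 7, FGF19 was the 1 called between origins after hatching (-7.66 ± 1.59, adjusted p = 0.0112, edgeR), against 11.8% of all genes. The FGF19 call held with each of the 5 libraries left out in turn. KLB itself had 5.19, 4.27 and 5.49 CPM in IVF hatched blastocysts, against 4.56 and 5.62 CPM in in vivo ones, with overlapping ranges. FGF21, another endocrine FGF that uses KLB, fell on hatching in vivo, to 0.199 and 0 CPM, against 4.92 and 4.42 CPM before hatching (-5.57 ± 1.34, adjusted p = 0.0187). That call was lost without in vivo blastocyst library 1 (adjusted p = 0.0559) or in vivo hatched library 2 (adjusted p = 0.0639).

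**Figure D1:**
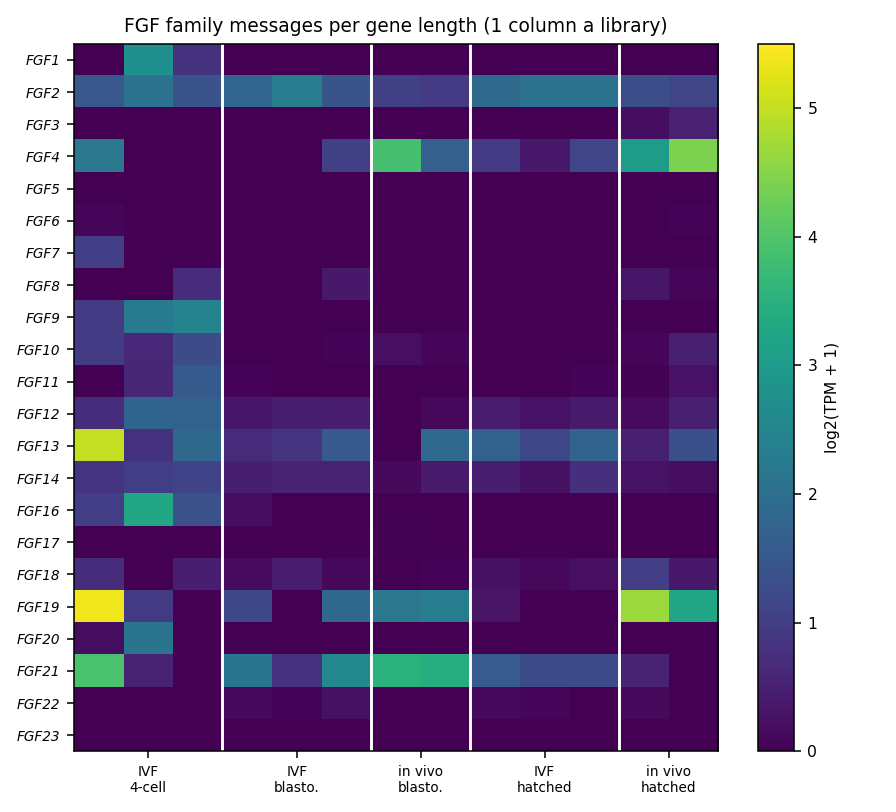
Level of each of 22 FGF genes (rows), 4 of which (FGF11 to FGF14) act inside the cell, in each of 13 libraries (columns, grouped by stage and origin), coloured by log2(TPM + 1). FGF4 and FGF19 are bright in in vivo hatched blastocysts and dark in IVF hatched blastocysts, while 4-cell embryos show other FGF genes such as FGF16, FGF12 and FGF13, with FGF19 and FGF13 brightest in 4-cell library 1.

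Of the receptors, FGFR2 and FGFR4 were both called in hatched blastocysts, in opposite directions, and they were the 2 of 9 tested members to pass there, against 11.8% of all genes. In mouse, FGFR2 is the receptor of the hypoblast and trophectoderm, and FGFR4 is best known for bile acid control in the liver.

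FGFR2 (gene 396762, chromosome 14, 131183095 to 131285001) had 38.6, 26.8 and 53.6 CPM in IVF hatched blastocysts, against 2.88 CPM in the unnumbered library and 10.5 CPM in library 2 of in vivo hatched blastocysts. All 3 IVF libraries were far above both in vivo libraries. The log2 fold change was 2.66 ± 0.48 (adjusted p = 0.00597, edgeR), and it passed with each of the 5 libraries left out in turn. Before hatching it had 23.9, 35.2 and 35.0 CPM in IVF blastocysts, against 21.9 and 25.8 CPM in in vivo blastocysts. Those ranges overlapped, and the difference was 0.37 ± 0.43 (adjusted p = 0.638). FGFR2 accordingly fell on hatching in vivo (-1.94 ± 0.49, adjusted p = 0.0239), whereas the IVF change was 0.36 ± 0.38 (adjusted p = 1). The fall in vivo lost its call without in vivo blastocyst library 1 (-1.93, adjusted p = 0.0667) or the unnumbered library (-1.31, adjusted p = 0.0653). The test of the difference between these hatching changes gave 2.30 ± 0.62 (adjusted p = 0.0568), short of the threshold.

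FGFR4 (gene 100127133, chromosome 2, 80841536 to 80853791) was lower after IVF at both stages. It had 2.67, 1.40 and 2.43 CPM in IVF hatched blastocysts, against 11.2 CPM in the unnumbered library and 36.8 CPM in library 2 of in vivo hatched blastocysts. In unhatched blastocysts it had 1.55, 0.516 and 2.89 CPM after IVF, against 8.13 and 6.49 CPM from in vivo. The groups were apart at both stages, and the in vivo hatched libraries were also apart from each other. The fold changes were -3.37 ± 0.65 in hatched blastocysts (adjusted p = 0.00803, edgeR) and -2.19 ± 0.64 in blastocysts (adjusted p = 0.0479). The hatched call was lost without in vivo hatched library 2 (-2.36, adjusted p = 0.111), and the blastocyst call was lost in 4 of the 5 fits that left out 1 library (-1.77 to -2.43 in those 4) and with library size as the only scaling (-2.15, adjusted p = 0.0589). Averaged over both stages, FGFR4 was lower in IVF embryos by -2.78 ± 0.45 (adjusted p = 0.0022) and FGFR2 higher by 1.52 ± 0.32 (adjusted p = 0.00805), and both calls held in each of 10 fits that left out 1 library. In the fit with the 4-cell libraries added, FGFR2 lost its call on this measure (adjusted p = 0.207). In hatched blastocysts both receptors did (adjusted p of 0.21 for FGFR2 and 0.112 for FGFR4). The FGFR4 call in blastocysts was lost in that fit too (adjusted p = 0.335), and with only the groups compared (adjusted p = 0.0927).

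FGFR3 (gene 100514115, chromosome 8, 879151 to 894968) had 2.72 to 6.35 CPM in IVF blastocysts, against 2.03 and 6.17 CPM in in vivo blastocysts, and 2.56 to 5.16 CPM in IVF hatched blastocysts, against 2.56 and 3.11 CPM in in vivo ones. The ranges overlapped at both stages, and the differences were 0.01 ± 0.56 and 0.61 ± 0.57 on the log2 scale. FGFR1, which in the mouse serves both epiblast and hypoblast (gene 100153248, chromosome 15, 48053895 to 48106634), had no count in any of the 5 unhatched blastocyst libraries. Its reads in hatched embryos came from IVF library 1 (2 counts) and in vivo library 2 (19 counts), and at the 4-cell stage from library 1 (142 counts). It was thus at or under the floor in 11 of 13 libraries.

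Set against the summed TPM of the 4 receptors, FGFR2 led in IVF and FGFR4 in in vivo hatched embryos. FGFR2 made up 88.3%, 90.7% and 91.1% of receptor TPM in IVF hatched blastocysts, against 21.0% in the unnumbered library and 24.3% in library 2 of in vivo hatched blastocysts. FGFR4 made up 5.03%, 3.90% and 3.41% there, against 67.4% and 70.3%. These 2 shares were close in both in vivo hatched libraries although the summed receptor levels were 9.21 TPM in the unnumbered library and 29.5 TPM in library 2, while FGFR3 made up 11.6% and 4.47%. In IVF blastocysts FGFR4 made up 4.72%, 1.08% and 6.09%, against 22.4% and 15.3% in in vivo blastocysts, with FGFR2 at 88.1%, 89.0% and 89.6% against 73.3% and 73.8%. The 2 origins did not overlap in either share at either stage.

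Averaged over both stages, the difference of IVF minus in vivo embryos was 41.4 percentage points for the FGFR2 share and -39.8 points for the FGFR4 share. These differences are given as descriptions only, and the shares of 1 library depend on each other.

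**Figure D2:**
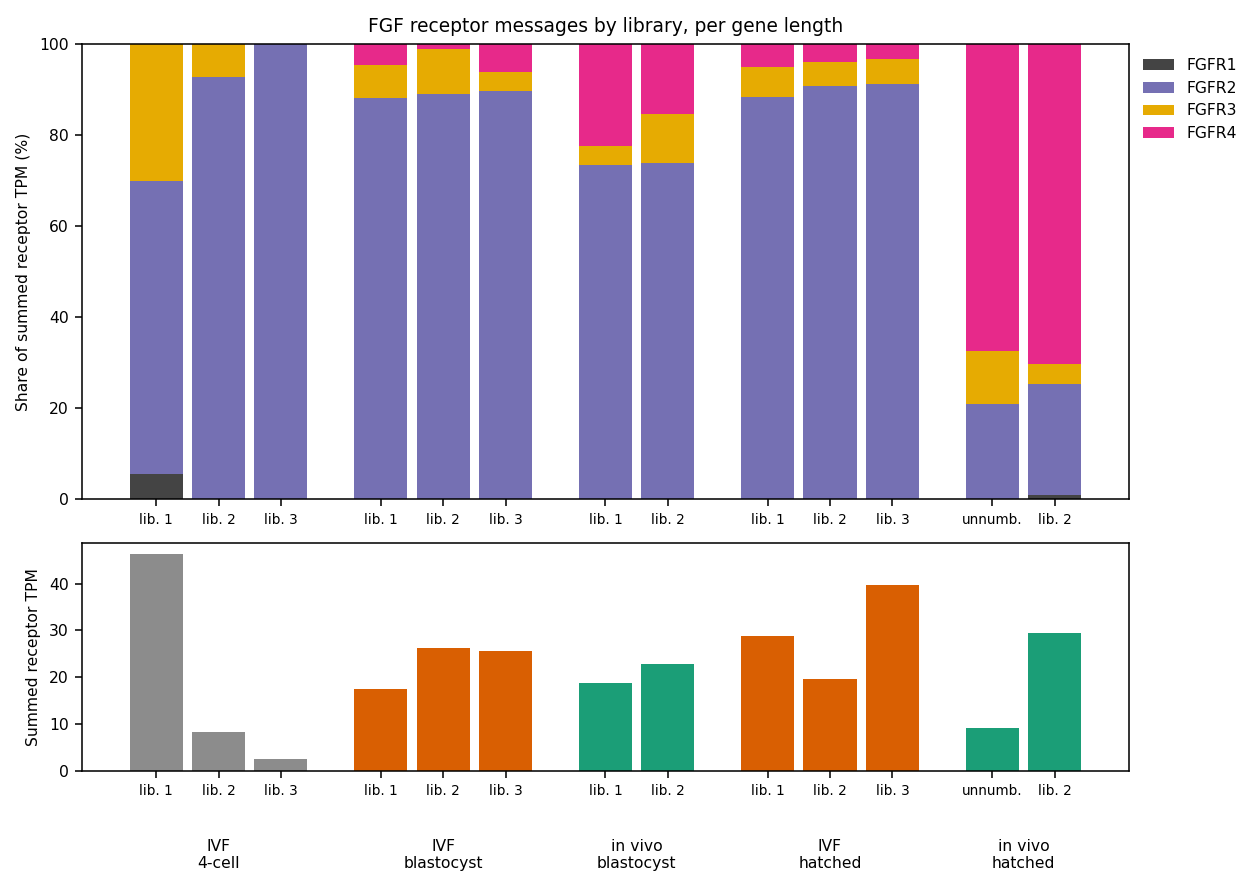
Share of each receptor in the summed TPM of FGFR1 to FGFR4 in each library (upper panel, in percent) and that sum (lower panel, in TPM), by stage and origin. FGFR4 takes 67.4% and 70.3% in in vivo hatched blastocysts, and at most 6.09% in any IVF library.

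In hatched blastocysts, summed markers of the hypoblast differed between origins in the same direction as FGFR4. The summed level of 12 hypoblast markers was 164 to 256 CPM in IVF hatched blastocysts, against 398 CPM in the unnumbered library and 1303 CPM in library 2 of in vivo hatched blastocysts, with no marker at 0 in every library of a group. In hatched blastocysts 9 of the 12 were lower after IVF, against 11.8% of all genes called. Among them were SOX17 (-4.36 ± 0.71, adjusted p = 0.0034, edgeR), a transcription factor of the hypoblast, and the receptor PDGFRA (-4.70 ± 0.70, adjusted p = 0.00208). GATA6, also on the list, was not called (0.079 ± 0.30, adjusted p = 0.902). Before hatching the summed levels were 243 to 256 CPM after IVF, against 172 to 271 CPM from in vivo, although FGFR4 was already apart there. In 4-cell embryos, in which FGFR4 had no count, they were 321 to 420 CPM. Summed epiblast markers (6 genes) were 959 to 1210 CPM in IVF hatched blastocysts, against 463 to 611 CPM in in vivo ones. POU5F1 held most of that sum, with 733 to 1011 CPM in IVF hatched blastocysts, against 328 to 527 CPM in in vivo ones. The median fold change of the 6 genes was -1.69, with 2 called higher and 1 lower, against 11.8% of all genes called. SOX2 had 0.505 to 0.931 CPM after IVF, against 4.53 to 6.72 CPM from in vivo (-2.78 ± 1.17, adjusted p = 0.149, edgeR). Summed stroma and vessel markers (8 genes) were 2.48 to 6.68 CPM after IVF, against 11.8 to 54.5 CPM from in vivo, with COL1A1, LUM, VWF and CDH5 at 0 in the in vivo hatched libraries. The part of these markers in the FGFR4, FGFR2 and FGF4 differences was not tested.

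DUSP6, the phosphatase that removes phosphate from ERK in the cytoplasm (gene 100622968, chromosome 5, 93303058 to 93307510), stood out among the inhibitors. In unhatched embryos it had 32.5, 31.2 and 34.8 CPM in IVF blastocysts, against 10.1 and 6.74 CPM in in vivo blastocysts. In hatched embryos it had 55.7, 20.0 and 46.8 CPM after IVF, against 117 CPM in the unnumbered library and 41.9 CPM in library 2 from in vivo. IVF blastocysts were thus above in vivo ones with no overlap, and hatched blastocysts of the 2 origins overlapped. The fold change between origins was 1.91 ± 0.50 in blastocysts (adjusted p = 0.0339, edgeR), where it and FGFR4 were the 2 of 9 members called, against 10.8% of all genes. That call was lost whichever of the 5 libraries was left out (1.58 to 2.36, adjusted p of 0.0677 to 0.137). In hatched blastocysts the difference was -0.91 ± 0.46 (adjusted p = 0.222), and it was 0.081 without the unnumbered library.

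After hatching in vivo, DUSP6 was higher, at 79.3 ± 52.9 CPM in hatched blastocysts, against 8.43 ± 2.39 CPM in blastocysts (3.16 ± 0.55, adjusted p = 0.00463). The call held with each of 4 libraries left out, although not with the 4-cell libraries in the fit (adjusted p = 0.066). With FGFR2 it made up the 2 of 9 members called, against 14.3% of all genes. In IVF embryos the same step gave 40.8 ± 18.6 CPM in hatched blastocysts, against 32.8 ± 1.80 CPM in blastocysts (0.33 ± 0.42, adjusted p = 1), and 0 of 9 members were called by edgeR or by DESeq2, against 0.0451% of all genes by edgeR. At an unadjusted p under 0.05 there was 1 member, SPRY2, and 594 of all 15528 genes. The hatching change of DUSP6 differed between origins, at -2.82 ± 0.67 for IVF minus in vivo (adjusted p = 0.0385), the 1 of 9 members called, against 4.71% of all genes. That call was kept in 2 of the 10 fits that left out 1 library (-1.83 to -3.42 over the 10).

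The sprouty genes encode inhibitors that act between the receptor and RAS. SPRY2 (gene 100157266, chromosome 11, 52153695 to 52158766) had 18.6, 13.8 and 19.5 CPM in IVF blastocysts, against 33.4 and 14.6 CPM in in vivo blastocysts, and 26.2, 24.4 and 35.5 CPM in IVF hatched blastocysts, against 57.3 CPM in the unnumbered library and 36.9 CPM in library 2 of in vivo ones. Hatched libraries were above unhatched ones of the same origin without overlap in both origins, by 0.76 ± 0.34 after IVF (adjusted p = 1) and 0.86 ± 0.42 in vivo (adjusted p = 0.189), and neither passed. SPRY4 (gene 100512891, chromosome 2, 143877334 to 143891280) had 0.49 to 2.54 CPM in IVF and 1.27 to 3.42 CPM in in vivo blastocysts of both stages, with overlapping groups. The target gene ETV4 (gene 100516755, chromosome 12, 19531507 to 19548303) was low throughout, at 0 to 2.63 CPM. It passed in none of the edgeR comparisons with no library left out.

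**Figure D3:**
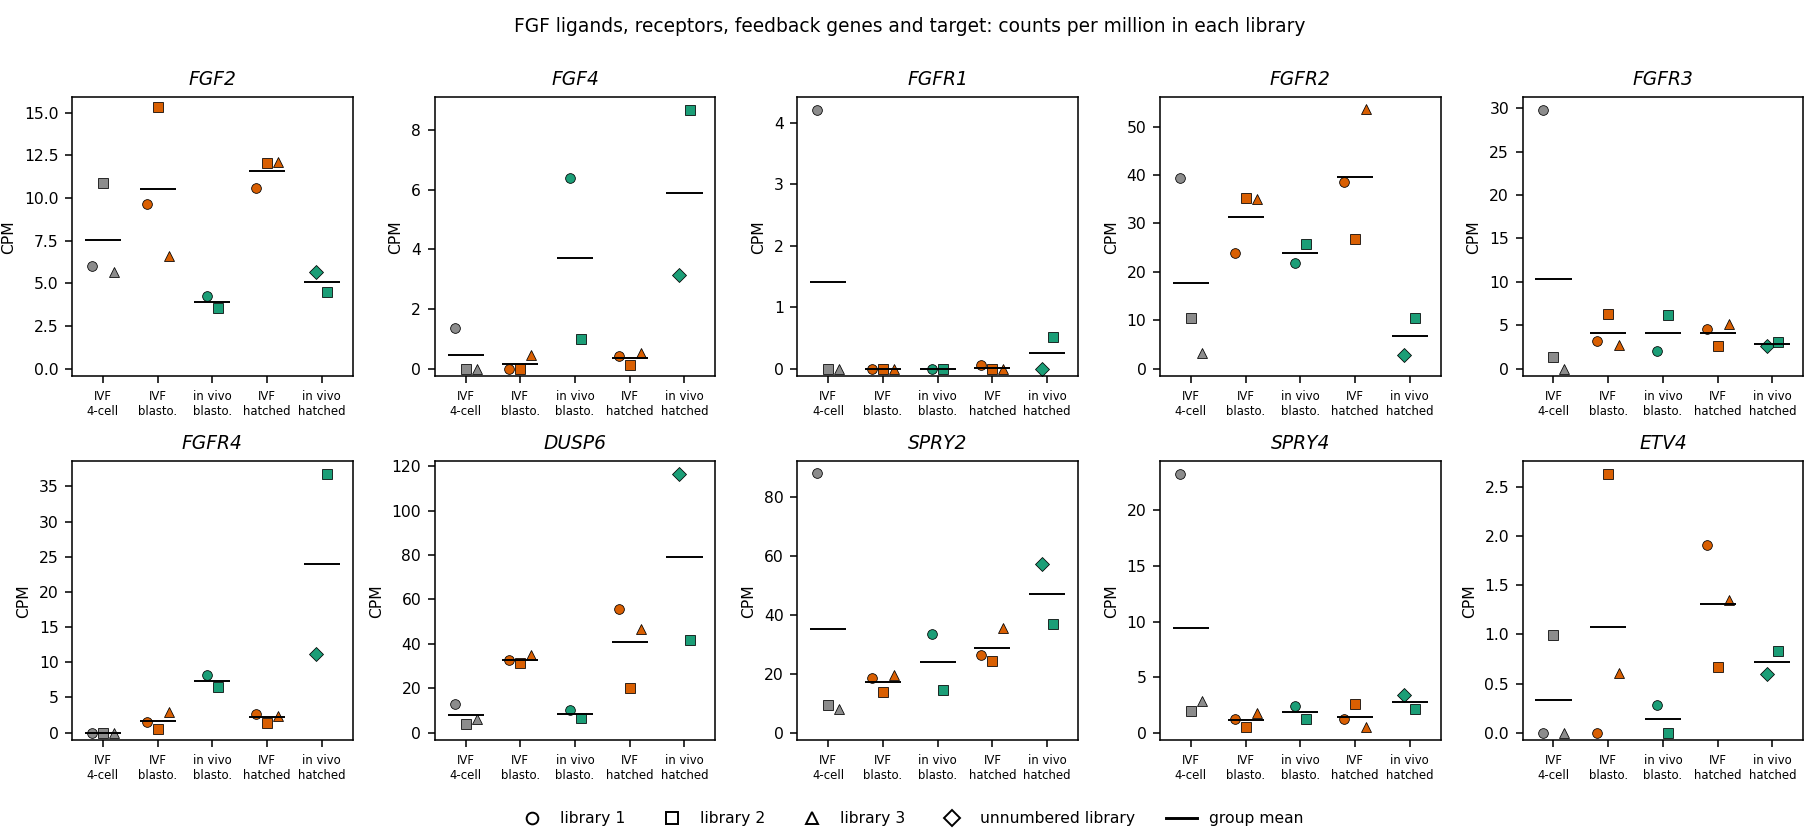
CPM of each of the 10 genes in each library, by stage and origin. Each symbol is a library and each line a group mean. DUSP6 is highest in in vivo hatched blastocysts and lowest among blastocysts in the in vivo unhatched ones, and 4-cell library 1 lies far above the other 4-cell libraries for FGFR1, FGFR2, FGFR3, SPRY2 and SPRY4.

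**Figure D4:**
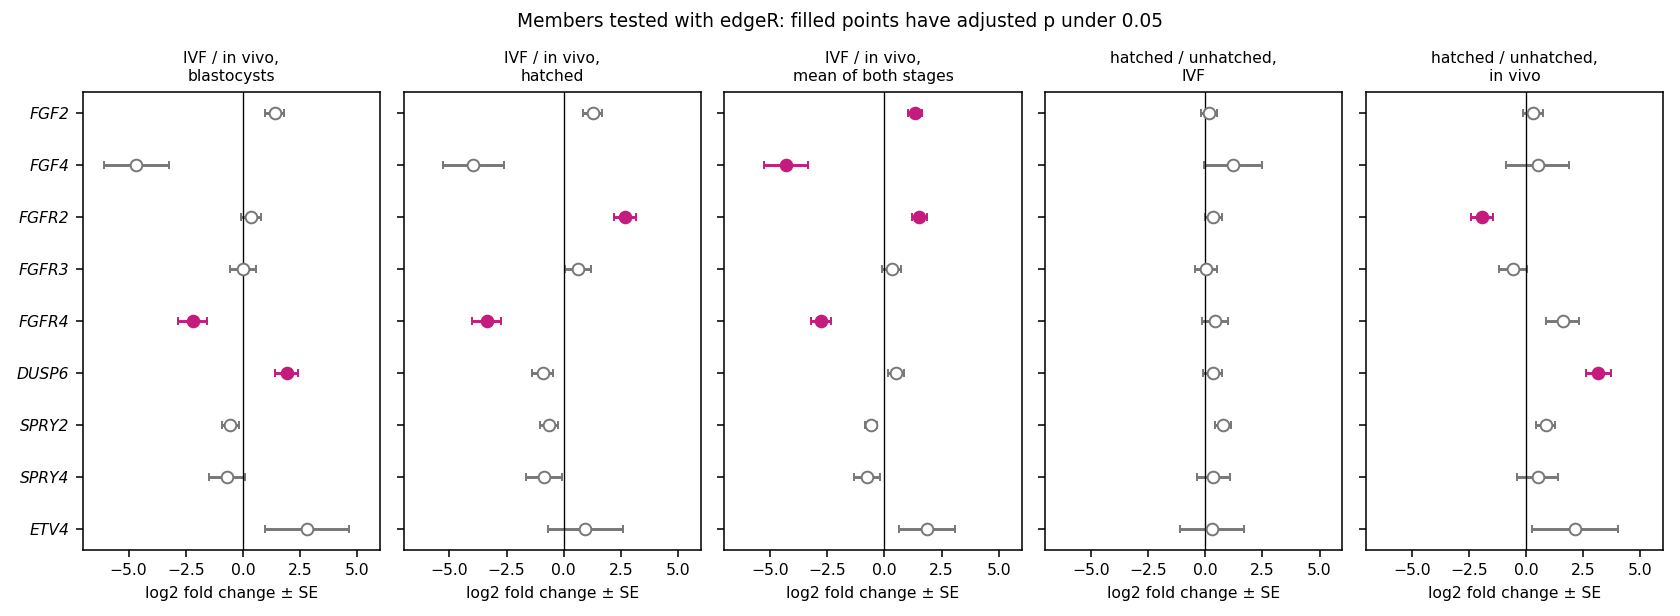
Log2 fold changes with approximate standard errors of the 9 tested genes in 5 comparisons, from edgeR, with filled points where the adjusted p was under 0.05. FGFR2 and FGFR4 lie on opposite sides of 0 in hatched blastocysts (2.66 and -3.37), and no point is filled for hatching after IVF.

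From the 4-cell stage to the IVF blastocyst, FGFR4 and DUSP6 rose, and they were the 2 of 9 members called in both comparisons with 4-cell embryos, against 56.3% of all 16312 genes for blastocysts and 56.6% for hatched blastocysts. FGFR4 had no count in any 4-cell library. Against a floor of 3 counts in each 4-cell library, its group mean was 18.5-fold higher in IVF blastocysts (adjusted p = 0.00174, edgeR) and 24.2-fold higher in IVF hatched blastocysts (adjusted p = 0.0015). These folds are of means, and single libraries were as low as 0.516 CPM in IVF blastocysts and 1.40 CPM in IVF hatched blastocysts. DUSP6 had 13.1, 4.09 and 6.26 CPM in 4-cell embryos, and its changes were 2.37 ± 0.50 (adjusted p = 0.00371) and 2.71 ± 0.50 (adjusted p = 0.00209). The median of all genes shifted by -0.23 and -0.27 in these 2 comparisons when library size alone was used as the scaling, which is smaller than either change.

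FGF2 had 6.04, 10.9 and 5.64 CPM in 4-cell embryos, and its changes were 0.73 ± 0.48 in IVF blastocysts (adjusted p = 0.223, edgeR) and 0.91 ± 0.48 in IVF hatched blastocysts (adjusted p = 0.137). FGF4 had 1.36 CPM in 4-cell library 1 and no count in the other 4-cell libraries. Its changes were -1.08 ± 2.19 (adjusted p = 0.697) and 0.15 ± 2.15 (adjusted p = 0.96), so neither ligand passed.

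Several members depended on 4-cell library 1. FGFR2 had 39.4 CPM there, against 10.4 and 3.29 CPM in the other 4-cell libraries, and its change was 1.23 ± 0.68 in blastocysts (adjusted p = 0.155) and 1.59 ± 0.69 in hatched blastocysts (adjusted p = 0.0756). Without that library the changes were 2.51 (adjusted p = 0.0031) and 2.86 (adjusted p = 0.00174), and 4 of 9 members passed in each comparison, against 66.0% and 66.4% of all genes. SPRY2 had 88.3, 9.44 and 7.96 CPM in 4-cell embryos, and without library 1 its changes were 1.25 (adjusted p = 0.00607) and 2.01 (adjusted p = 0.000691), against -0.61 and 0.16 with it. SPRY4 had 23.3, 1.98 and 2.88 CPM and FGFR3 29.8, 1.32 and 0 CPM in the 4-cell libraries, and neither passed with or without library 1. Leaving out 4-cell library 2 instead, the 1 4-cell library with ETV4 counts, brought SPRY4 past the threshold in blastocysts (-2.996, adjusted p = 0.0386). ETV4 then passed as higher in blastocysts (adjusted p = 0.0438) and in hatched blastocysts (adjusted p = 0.0397). Both ETV4 changes are against 4-cell libraries with no ETV4 count.

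The rest of the pathway was described with fixed lists from which the 10 genes were removed. Of 13 other genes tested from the feedback inhibitor list, 2 rose and 9 fell from 4-cell embryos to IVF blastocysts, against 56.3% of all genes called in either direction. Their median was -2.52, against -0.23 over all genes. SPRED2, an inhibitor of RAS activation of RAF, had 0.509 to 2.94 CPM in IVF blastocysts, against 527, 403 and 362 CPM in 4-cell embryos (-7.99 ± 0.78, adjusted p = 9.29e-05, edgeR). LGALS3, on the list for galectin binding of RAS and not as an established feedback inhibitor, was among those that rose (3.40 ± 0.59). DUSP6 therefore rose at a step at which most of the other genes tested from that list fell.

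Between origins, 0 of the 13 were called in blastocysts, against 10.8% of all genes, and 2 in hatched blastocysts, against 11.8%. There LGALS3 was higher after IVF (2.75 ± 0.40, adjusted p = 0.00192) and SPRY1, another sprouty gene, lower. SPRY1 had 0.253, 2.48 and 0.552 CPM in IVF hatched blastocysts, against 11.9 CPM in the unnumbered library and 27.4 CPM in library 2 of in vivo ones (-4.02 ± 0.94, adjusted p = 0.0194). Without in vivo hatched library 2 its adjusted p was 0.126.

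Of 19 other transcription targets of ERK tested, 5 rose and 1 fell on hatching in vivo, against 14.3% of all genes called in either direction (median 0.75, against -0.01 over all genes). Among those that rose were FOS, JUN and EGR1, immediate-early genes that ERK and other kinases switch on within minutes. FOS had 276 CPM in the unnumbered library and 259 CPM in library 2 of in vivo hatched blastocysts, against 20.3 and 44.4 CPM in in vivo blastocysts (3.003 ± 0.35, adjusted p = 0.000813, edgeR). JUN had 514 and 231 CPM, against 21.2 and 39.2 CPM (3.59 ± 0.42, adjusted p = 0.000833), and EGR1 had 27.9 and 17.2 CPM, against 1.54 and 1.13 CPM (3.99 ± 0.69). In each of these genes both hatched libraries lay above both unhatched ones, and the 3 calls held with each of 4 libraries left out.

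On hatching after IVF 0 of the 19 were called, where 0.0451% of all genes were. The hatching change differed between origins for JUN (-3.34 ± 0.50, adjusted p = 0.00731) and FOS (-2.19 ± 0.42, adjusted p = 0.0173), with both calls kept in all 10 fits that left out 1 library. FOS had 24.1, 32.2 and 27.8 CPM in IVF hatched blastocysts, well below both in vivo values above (-3.17 ± 0.30, adjusted p = 0.00021). MYC was also lower after IVF there (-1.90 ± 0.33, adjusted p = 0.00495), while CCND1, a cyclin, was higher (3.50 ± 0.61, adjusted p = 0.00494). DUSP6 had a difference of hatching changes of the same sign as JUN and FOS, but its call was kept in only 2 of 10 fits that left out 1 library. For DUSP6 the origins were apart before hatching (1.91 ± 0.50, higher after IVF) and overlapped after it, whereas FOS was lower after IVF in hatched blastocysts. SPRY2, SPRY4 and ETV4 did not pass the test of the difference of hatching changes.

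**Figure D5:**
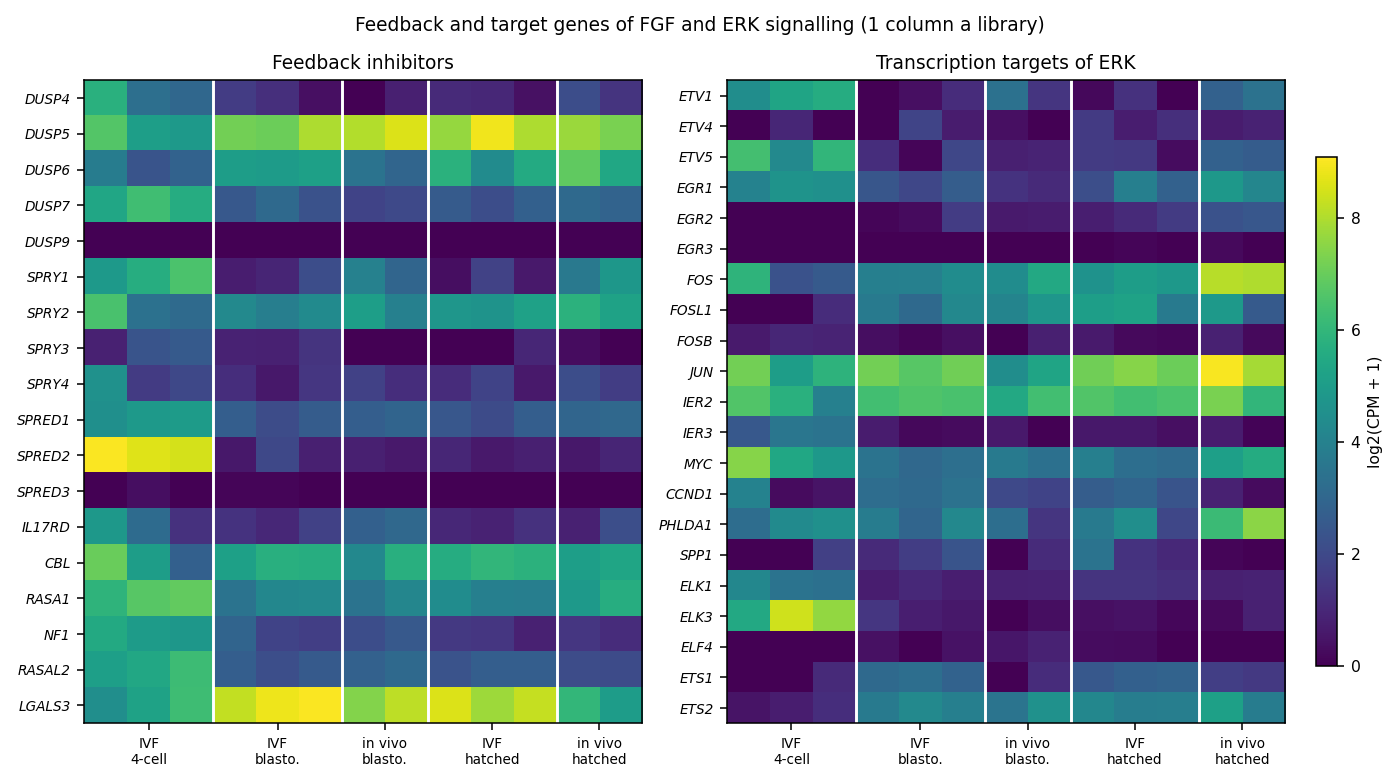
Level of each gene of the feedback inhibitor list (left) and each transcription target of ERK (right) in each library, coloured by log2(CPM + 1). FOS and JUN are brightest in in vivo hatched blastocysts, and SPRED2 and ELK3 are bright in 4-cell embryos and dark in blastocysts of both origins.

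Upstream of ERK, genes of the adaptor and kinase list were called in both directions. Of 20 genes tested, 2 were higher and 2 lower in IVF blastocysts, against 10.8% of all genes called. The GTPase NRAS had 29.2, 16.9 and 23.4 CPM in IVF blastocysts, against 1.62 and 1.19 CPM in in vivo blastocysts (3.99 ± 0.54, adjusted p = 0.00364, edgeR), and SOS1, which loads RAS with GTP, had 2.50, 4.88 and 6.43 CPM, against 18.2 and 22.7 CPM (-2.18 ± 0.40, adjusted p = 0.00889). In both genes the origins were far apart, in opposite directions. In hatched blastocysts 3 of the 20 were higher after IVF and none lower, against 11.8% of all genes called, with NRAS (1.71 ± 0.47) among the 3, and the NRAS call there was lost without in vivo hatched library 2 (adjusted p = 0.26).

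Heparan sulfate, which FGFs need at the receptor, is made and trimmed by a further set of genes. Of 18 tested, 4 were lower in IVF hatched blastocysts and none higher, against 11.8% of all genes called, with EXT1, which lengthens the chain, at 39.2, 38.3 and 58.7 CPM after IVF, against 78.1 CPM in the unnumbered library and 228 CPM in library 2 from in vivo (-1.65 ± 0.37, adjusted p = 0.0156, edgeR). The others were EXT2, the sulfatase SULF2 and the proteoglycan GPC6. Without in vivo hatched library 2 none of the 4 passed (adjusted p of 0.179 to 0.376).

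The genes whose pattern over 13 libraries was most like a member were found by the smallest root mean square (RMS) difference of centred log2(CPM + 1), among 9127 genes. For FGFR4 they were PTH1R (0.475), WNT11 (0.493) and BAG3 (0.508), where the RMS of FGFR4 about its own mean was 1.52. For FGFR2 they were ARSB (0.497), SOWAHC and NDNF, against 1.17 for FGFR2 itself. For FGF4 they were LARP7 (0.528), HYOU1 and LMAN1, for FGF2 PRSS22 (0.252), MFSD1 and TMEM51, and for DUSP6 PRDX1 (0.54), SLC43A2 and BACH1. These are descriptions with no test, and all patterns share the 13 libraries, the 4-cell ones included.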

How the data were processed

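Messenger RNA was sequenced from pooled pig embryos in 13 libraries of 5 groups. The authors deposited 1 gene table on Sscrofa11.1 with unnormalised read counts, and with TPM (counts scaled by gene length and library, made by the authors). RSEM, HISAT2, Bowtie2, StringTie 1.3.1 and fastp 0.18.0 are listed, without their order of use, in the submitters' processing notes. How reads were counted, on which strand and with what rounding is not given in the sources used here. Of 39 columns of library values, 14 were not used, namely 13 of FPKM and 1 of TPM. For levels per length, TPM was rebuilt from counts in all 13 libraries, with the median of count divided by deposited TPM, over the 12 libraries whose TPM was used, as the relative gene length. Positions come from a RefSeq table of the same build, in which 28208 of 28232 genes matched by gene number. The 24 others, mitochondrial rRNA and tRNA genes, held 0.0171% to 0.112% of counts.

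CPM used total counts, and floors reflect counting error alone. Libraries of a group differed beyond sampling noise (lowest chi-square over its degrees of freedom 72.5), so each counted as 1 library. Tests used edgeR 4.0.16 in R 4.3.3 (quasi-likelihood, scaling by TMM, genes of low count dropped by its default filter, Benjamini-Hochberg adjustment over all genes, threshold 0.05), in a fit of the 10 blastocyst and hatched libraries (15528 genes) and a fit of the 9 IVF libraries (16312 genes). Alternatives were other scalings, no filter, DESeq2 1.42.0, a replicate block, other sets of libraries and leaving out each library. The members and gene lists were chosen with earlier results of these data known. All members are named, with up to 4 called genes per list and comparison by smallest p, although only some are printed. No protein or promoter sequence was used.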

Additional observations from a re-analysis of the deposited data

Results flagged for a closer look

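The hatching change of DUSP6 differed between origins, by -2.82 ± 0.67 on the log2 scale (adjusted p = 0.0385, edgeR, IVF minus in vivo). It drew attention because the difference itself passed the test. DUSP6 had 40.8 ± 18.6 CPM in IVF hatched and 32.8 ± 1.80 CPM in IVF unhatched blastocysts (n = 3 each), and 79.3 ± 52.9 CPM in in vivo hatched and 8.43 ± 2.39 CPM in in vivo unhatched blastocysts (n = 2 each). The call was lost in 8 of the 10 fits that left out 1 library, with the same direction in all of them.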

How the results depend on the processing

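The number of genes called was 1681 for origin in blastocysts, 1839 for origin in hatched blastocysts, 2228 for in vivo hatching, 7 for IVF hatching, 732 for the difference of hatching changes and 3009 for origin averaged over stages. In that order, no filter on low counts gave 2749, 2850, a count within 1.5 times, 162, 1855 and a count within 1.5 times. DESeq2 gave 2900, 2988, 3516, 49, 1879 and a count within 1.5 times. One fit of all 13 libraries gave 7, 92, 101, 0, 1 and 326, and only the groups compared gave 757 for in vivo hatching. Leaving out 1 library gave 320 to 1757, 513 to 2068, 1064 to 2153, 4 to 7, 333 to 969 and 1846 to 3156. Comparisons with 4-cell embryos kept their counts within 1.5 times throughout. The cause of these shifts was not tested.

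Members called for origin in blastocysts were 4 without the filter, 4 by DESeq2, 0 with all 13 libraries, 1 with only the groups compared and 0 to 3 with 1 library left out. For origin in hatched blastocysts they were 4, 4, 0, 4 and 1 to 2. For in vivo hatching they were 0 with all 13 libraries, 1 with only the groups compared and 1 to 2 with 1 library left out. For the difference of hatching changes they were 2, 2 and 0 without the filter, by DESeq2 and with all 13 libraries, and 0 to 2 with 1 library left out. For origin averaged over stages, all 13 libraries gave 1. Against 4-cell embryos, leaving out 1 library gave 2 to 4 in both comparisons.

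Whether replicate numbers pair the samples is not known. Deviations from group means in same-numbered libraries of different groups had correlations of -0.133 to 0.0275. With 2 or 3 libraries to a group such deviations depend on each other, so these values cannot settle the pairing. The replicate block gave 1028, 1145, 1146, 347 and 1948 genes for the comparisons above other than IVF hatching, and 0 members for the difference of hatching changes. Under the block FGF2 changed sign for in vivo hatching (-0.045) and the difference of hatching changes (0.28), as did FGF4 (-0.075) and SPRY4 (0.13) for that difference and FGFR3 against 4-cell embryos (0.73 in blastocysts and 0.76 in hatched blastocysts).

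Other changes of sign concerned members that were not called. FGFR3 for origin in blastocysts was -0.017 with RLE factors, -0.012 with library size alone, -0.017 by DESeq2, -0.0043 with all 13 libraries and -0.0026 with only the groups compared. With library size alone FGF4 (-0.34) and SPRY2 (-0.30) changed sign in hatched blastocysts against 4-cell embryos. Over the fits that left out 1 library, FGFR3 lay at -0.52 to 0.88 and SPRY2 at -1.08 to 0.31 for origin in blastocysts, and DUSP6 at -1.51 to 0.081 for origin in hatched blastocysts. For in vivo hatching FGF4 lay at -0.32 to 2.59 and FGFR3 at -1.08 to 0.30. For IVF hatching FGF2 lay at -0.076 to 0.55, FGFR3 at -0.19 to 0.52, FGFR4 at -0.0056 to 1.08, SPRY4 at -0.41 to 0.76 and ETV4 at -0.29 to 2.14. For the difference of hatching changes FGF2 lay at -0.40 to 0.25, FGF4 at -1.36 to 6.23, FGFR3 at -0.27 to 1.11, SPRY2 at -0.98 to 0.43 and SPRY4 at -0.95 to 0.29. Against 4-cell embryos FGF4 lay at -6.64 to 5.57 in blastocysts and -0.41 to 6.78 in hatched blastocysts, FGFR3 at -1.44 to 2.98 and -1.40 to 3.01, and SPRY2 at -1.02 to 1.25 and -0.26 to 2.01.

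FGF4, FGFR1 and ETV4 each had libraries with 0 to 3 counts, which lie at the floor. Replicates of a group differed widely in these genes. ETV4 had 0, 102 and 22 counts in IVF blastocyst libraries 1, 2 and 3. In 4-cell libraries 1, 2 and 3, FGFR1 had 142, 0 and 0 counts and FGF4 46, 0 and 0. Total counts per library lay between 33259311 and 39273867. The source of this spread was not tested. With 2 libraries in each in vivo group, a single library decides several calls.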
